A study of Mus musculus with 4 samples.

Results

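Of 31053 genes counted in 4 single-cell RNA libraries of mouse back skin, 10 make up the aryl hydrocarbon receptor (AhR) and the metabolism of 7,12-dimethylbenz[a]anthracene (DMBA): Ahr, Arnt, Ahrr, Tiparp, Cyp1a1, Cyp1b1, Ephx1, Nqo1, Gstm1 and Por. The genes were chosen by name, and their transcripts were followed through the cell types of each library. The libraries come from WT and Cd226-/- mice, all on the BALB/c background, with skin cells of 3 mice pooled for each sample. For the WT treated and the Cd226-/- treated libraries the shaved back skin received 25 µg DMBA once and, 1 week later, 5 µg of the phorbol ester TPA weekly for 3 weeks, and sorted CD45+ and CD45- cells were mixed 1 to 1. The naive CD45+ and naive CD45- libraries each hold equal numbers of WT and Cd226-/- cells of untreated mice, so they give no naive value for either genotype alone. CD45 marks blood-derived cells, and Cd226 encodes the activating receptor DNAM-1 of T and NK cells. DMBA starts and TPA promotes skin tumors in this model. Both agents were given to the same mice, so their effects cannot be told apart, and no skin was taken between DMBA and TPA.

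DMBA is a procarcinogen. It binds AhR, which moves to the nucleus, pairs with ARNT and switches on genes such as Cyp1a1, Cyp1b1, Ahrr, Tiparp and Nqo1. The P450 enzymes CYP1A1 and CYP1B1, fed with electrons by the reductase POR, oxidise DMBA, and the microsomal epoxide hydrolase EPHX1 opens the first epoxide to a diol that CYP1B1 converts to the DNA-binding diol epoxide. NQO1 reduces quinones and glutathione transferases such as GSTM1 conjugate reactive epoxides, while AHRR and TIPARP restrain AhR itself.

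AhR and ARNT bind a DNA core written GCGTG on one strand and CACGC on the other, so the proximal promoters of the classical target genes are shown first, with that core in capitals. The sequences are RefSeq windows of build GRCm38.p6, from 250 bases before to 50 bases after the annotated start, read 5′ to 3′ on the gene's own strand. They lie at chr17:79715012-79715311 on the minus strand for Cyp1b1, chr13:74292282-74292581 on the minus strand for Ahrr, chr3:65528197-65528496 on the plus strand for Tiparp and chr9:57697363-57697662 on the plus strand for Cyp1a1.
Cyp1b1: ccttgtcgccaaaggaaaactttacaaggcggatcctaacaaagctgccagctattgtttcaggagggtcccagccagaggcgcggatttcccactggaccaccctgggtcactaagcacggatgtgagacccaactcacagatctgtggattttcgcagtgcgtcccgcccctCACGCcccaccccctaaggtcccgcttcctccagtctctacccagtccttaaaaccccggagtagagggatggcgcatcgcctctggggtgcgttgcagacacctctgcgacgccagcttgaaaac
Ahrr: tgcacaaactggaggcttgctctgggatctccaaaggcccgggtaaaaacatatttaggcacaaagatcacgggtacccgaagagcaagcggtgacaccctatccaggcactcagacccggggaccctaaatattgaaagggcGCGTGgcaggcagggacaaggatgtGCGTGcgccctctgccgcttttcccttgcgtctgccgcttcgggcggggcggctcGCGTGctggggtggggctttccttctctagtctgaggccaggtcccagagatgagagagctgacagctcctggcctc
Tiparp: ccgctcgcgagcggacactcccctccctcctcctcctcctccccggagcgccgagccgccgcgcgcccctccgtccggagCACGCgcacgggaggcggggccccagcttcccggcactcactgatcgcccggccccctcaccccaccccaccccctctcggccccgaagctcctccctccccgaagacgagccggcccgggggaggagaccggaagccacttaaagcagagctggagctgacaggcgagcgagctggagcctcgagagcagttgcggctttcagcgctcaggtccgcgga
Cyp1a1: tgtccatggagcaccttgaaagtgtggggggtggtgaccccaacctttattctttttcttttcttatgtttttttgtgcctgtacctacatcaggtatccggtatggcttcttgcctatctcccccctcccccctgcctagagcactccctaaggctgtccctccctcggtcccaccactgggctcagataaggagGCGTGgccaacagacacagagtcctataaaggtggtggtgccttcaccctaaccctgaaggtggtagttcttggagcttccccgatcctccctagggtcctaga
Ahrr held the core 3 times in this window, and Cyp1b1, Tiparp and Cyp1a1 held it 1 time each. The core of Cyp1b1 began 76 bases before the start, that of Tiparp 170 bases before it and that of Cyp1a1 54 bases before it. Windows were found for 9 of the 10 genes, and 7 of these 9 held at least 1 core, against 32.4% of all 32851 promoter windows of the same length. Por held 3 cores, Arnt and Gstm1 held 1, and the windows of Ephx1 and Nqo1 held none. The share of 7 of 9 counts genes, while the 32.4% counts windows. A longer string, TNGCGTG with N as any base, was found only in the Ahrr window, 1 time, and in 5.07% of all windows. The 4 windows printed had a G and C content of 54% to 73.7%, against a median of 52.7% over all windows. The windows of the other genes had 53.7% (Nqo1) to 67.3% (Por). A match is a string of letters and not a measured binding site.

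The 4 libraries held 72606822 gene UMIs (unique molecular identifiers, each 1 captured transcript) for WT treated, 71245703 for Cd226-/- treated, 81406730 for naive CD45- and 42043869 for naive CD45+ skin. After filtering, 7032, 6522, 10637 and 3310 cells remained, in the same order, with medians of 8343, 9074, 6560 and 8626.5 UMIs per cell. Cells were clustered without the 10 genes and named from marker genes; each name below is short for "X-like". The naming rule required at least 3 detected markers, and 673, 590, 26 and 69 cells stayed unnamed. Any pair of libraries shared between 9 and 21 cell barcodes, and between 6 and 19 among kept cells. Levels are UMIs of a gene scaled to 1000000 UMIs of the class in that library (CPM). Cd226 itself read 47.1 CPM in WT treated lymphocytes (83 UMIs), 16.6 in Cd226-/- treated lymphocytes (42 UMIs) and 4.89 in naive lymphocytes (8 UMIs), while the median DNAM-1 antibody tag count per lymphocyte was 43, 2 and 10. Fibroblasts of the same libraries, which should lack DNAM-1, had medians of 16, 2 and 10, so lymphocytes stood above this background in the WT treated library alone of these 3. Fibroblasts of the naive CD45- library had a median tag count of 106, so this background differed widely between libraries. The library labelled Cd226-/- kept Cd226 RNA; the sources used here do not say whether the 3′ end of the transcript lies in the deleted part.

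Levels carry 95% exact Poisson intervals. Each group is 1 library, so there is no replicate check and no p-value, and all intervals cover counting error only. Ratios carry exact conditional 95% intervals, and a ratio is called higher or lower when it is at least 1.5-fold with at least 50 UMIs over both libraries. Immune classes were set against naive CD45+ cells and all other classes against naive CD45- cells. Both treated libraries share these naive cells. Levels are compared between libraries and classes for 1 gene at a time, not between genes, since 3′ capture differs from gene to gene.

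In fibroblasts, treated skin had far more Cyp1b1 and less Ahrr, Ephx1, Nqo1 and Por than naive skin, so the activating P450 was higher while the hydrolase, the quinone reductase, the electron donor and the AhR repressor were lower. Of 9 genes with enough UMIs, 1 was higher and 4 were lower in WT treated fibroblasts, where 31.9% of all genes tested were called. In Cd226-/- treated fibroblasts 1 was higher and 5 were lower, with Tiparp the added gene, where 38.4% of all genes were called. The median log2 ratio of the 9 genes was -0.47 in WT and -0.71 in Cd226-/- fibroblasts. Over all genes tested it was 0.18 and 0.17, so the class as a whole sat slightly above equality on this scale. In keratinocytes all 7 genes tested were lower in WT treated skin, with 50.2% of all genes called and an all-gene median log2 ratio of 0.27. The 6 fibroblast markers were all above 0 in the other stromal classes, at 21.0% of their fibroblast level in naive keratinocytes, 19.5% in naive lymphatic endothelial and 12.9% in naive blood endothelial cells, against 3.37%, 2.21% and 5.96% in WT treated skin. The part of fibroblast RNA in the ratios of these classes was not tested.

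**Figure D1:**
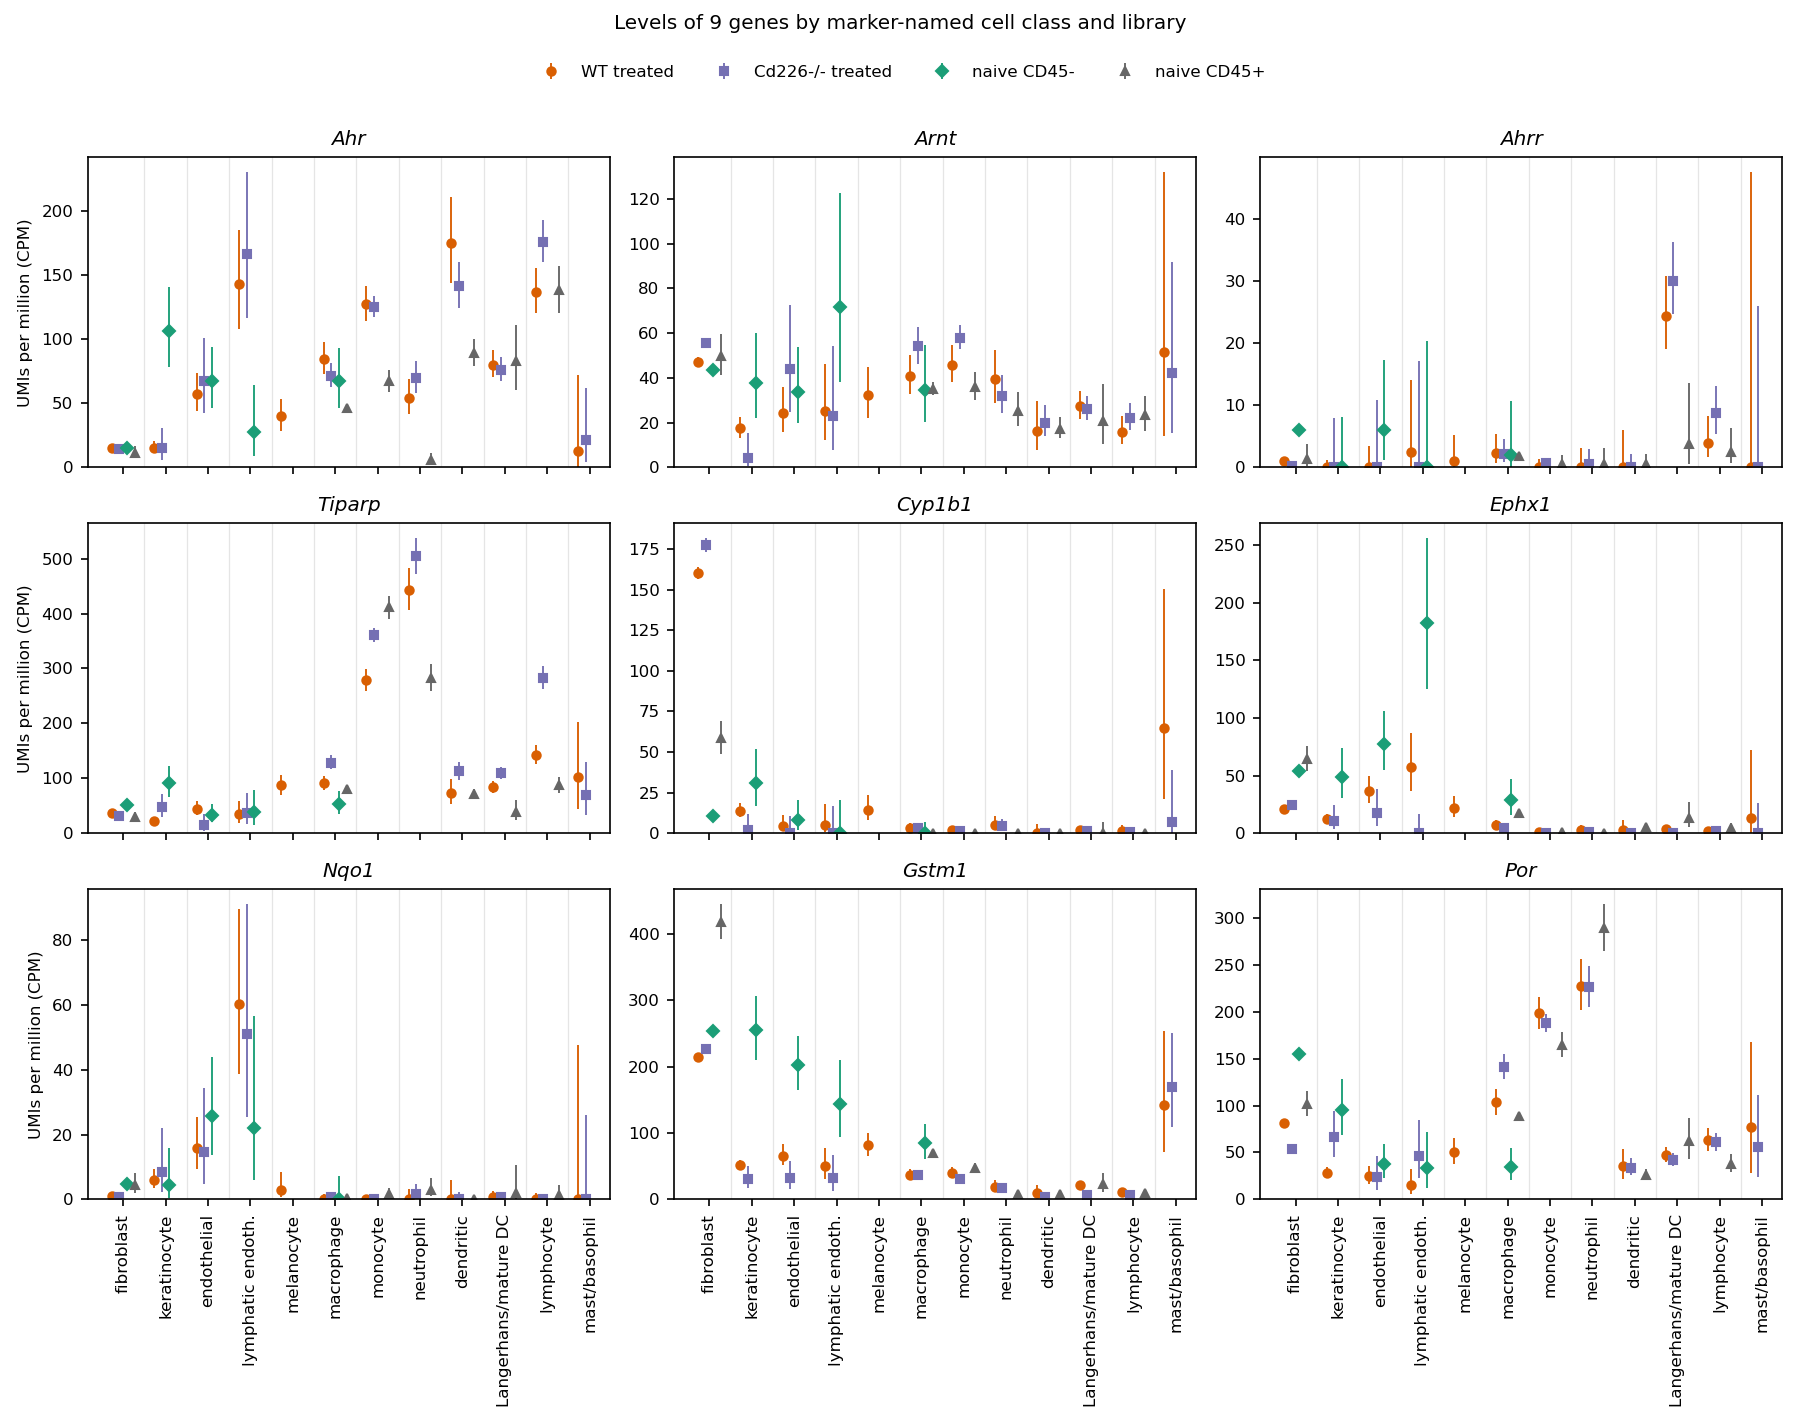
Level of 9 of the genes (CPM, linear axis from 0, a scale of its own for each gene) in each cell class, with 1 point per library and exact Poisson 95% bars. Cyp1b1 stands high in fibroblasts of the treated libraries (160.0 and 177.3 CPM), Tiparp is highest in neutrophils and monocytes, and Cyp1a1, with 3 UMIs in all, is not drawn.

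Few genes could be tested in the endothelial classes, while all 6 genes tested were called in Cd226-/- treated macrophages. Blood endothelial cells had 2 of 4 genes lower in WT treated skin (22.9% of all genes called) and 1 of 2 lower in Cd226-/- treated skin (35.7% called). Lymphatic endothelial cells of WT treated skin had 1 higher and 1 lower of 2 genes (38.3% called, all-gene median log2 ratio 0.14). Macrophages had 1 higher and 2 lower of 6 genes in WT treated skin (21.8% called) and 4 higher and 2 lower in Cd226-/- treated skin (25.5% called).

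Among other immune cells the calls were mostly upward. Monocytes had 1 of 5 genes higher in WT treated skin (17.4% of all genes called), and 2 higher and 1 lower in Cd226-/- treated skin (19.0% called). Neutrophils had 3 of 4 genes higher in WT (50.3% called) and 2 of 4 higher in Cd226-/- skin (52.0% called, all-gene median log2 ratio 0.16). Dendritic cells had 1 of 4 higher in WT (21.6% called) and 2 of 4 higher in Cd226-/- skin (17.8% called). Lymphocytes had 2 of 4 higher in WT (27.1% called, all-gene median log2 ratio -0.11) and 2 of 4 higher in Cd226-/- skin (25.8% called). Over 9 classes this came to 10 higher and 16 lower of 45 gene and class pairs in WT treated skin, and over 7 classes to 13 higher and 9 lower of 34 pairs in Cd226-/- treated skin.

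**Figure D2:**
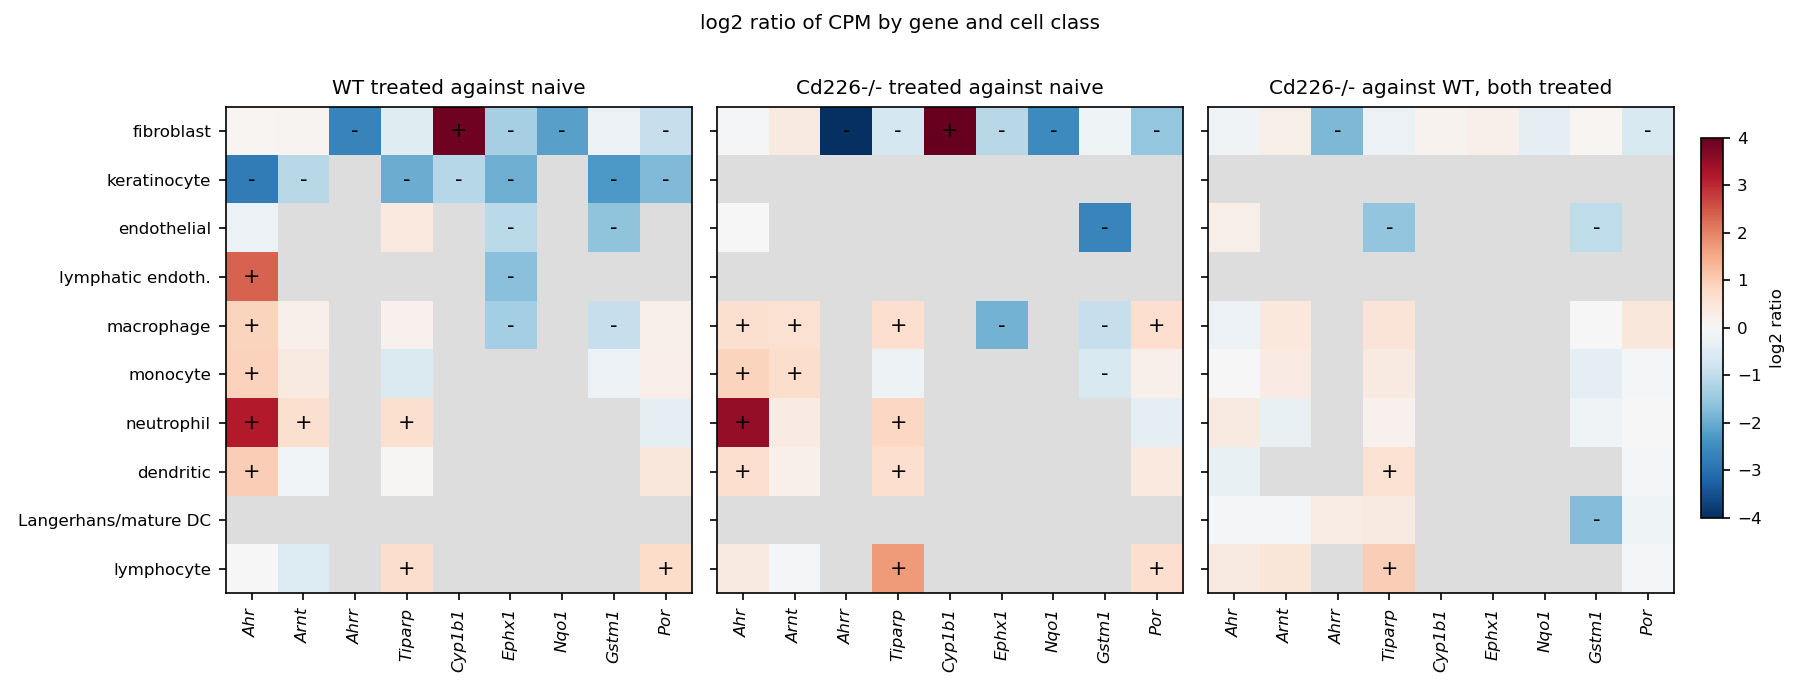
Log2 ratio of each gene in each class for the 3 comparisons (WT treated against naive, Cd226-/- treated against naive, Cd226-/- against WT treated), with classes as rows, genes as columns, red for higher, blue for lower (color ends at 4 either way), + and - for calls, and gray where cells or UMIs were too few. Cyp1b1 in fibroblasts and Ahr in neutrophils are the darkest red, and the keratinocyte row of WT treated skin is blue for all 7 genes tested.

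Ahr (chr12:35497974-35535038, minus strand) encodes the receptor that binds DMBA. In treated skin it was highest in lymphocytes, dendritic cells, monocytes and lymphatic endothelial cells. In the naive libraries it was highest in lymphocytes and, among CD45- cells, in keratinocytes, and fibroblasts were low throughout. Lymphocytes held 137 CPM in WT treated, 176 in Cd226-/- treated and 138 in naive CD45+ skin. Fibroblasts held 15.4, 14.1 and 14.7 CPM in WT treated, Cd226-/- treated and naive CD45- skin, and 11.3 in the 150 fibroblasts of the naive CD45+ library. These 4 fibroblast values lie within 1.5-fold of each other, and the WT treated to naive CD45- ratio of 1.05 (0.948 to 1.15) became 0.903 under trimmed-mean scaling, so no direction is given.

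Ahr was higher after treatment in all 4 myeloid classes set against naive cells. Macrophages read 84.9 CPM in WT treated and 71.5 in Cd226-/- treated skin against 46.1 in naive CD45+ skin, ratios of 1.84 (1.56 to 2.16) and 1.55 (1.33 to 1.80). The 90 macrophages of the naive CD45- library read 67.1 CPM, and against these the ratios were 1.27 and 1.07, so the macrophage calls depend on which naive cells are used. The Cd226-/- call was also lost with doublets kept, finer clustering or separate clustering, at 1.28 to 1.45. Monocytes read 128 and 126 against 67.2 CPM, ratios of 1.90 (1.61 to 2.24) and 1.87 (1.62 to 2.16). Dendritic cells read 175 and 142 against 89.3 CPM, ratios of 1.96 (1.56 to 2.45) and 1.59 (1.33 to 1.89).

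Neutrophils had the widest upward Ahr gap, with 54.4 CPM in WT treated and 69.7 in Cd226-/- treated against 6.06 in naive skin (65, 129 and 11 UMIs). The ratios were 8.97 (4.70 to 18.9) and 11.5 (6.22 to 23.6). They were 3.19 and 4.11 when doublets were kept, and the WT ratio was 19.1 with separate clustering of the libraries. The class is made of 2 clusters, and the gap went with their sizes. Cluster 21 held 159, 268 and 518 of the cells and read only 5.92, 7.65 and 2.45 CPM, from 4, 8 and 4 UMIs. Cluster 22 held 57 and 78 treated cells and read 117 and 150 CPM, but it held just 18 naive cells and has no naive value. Cluster 22 also had the higher monocyte marker score of the pair, 6.22 against 3.81, and its median depth was 9108 UMIs against 2910. Their part in the class ratio was not tested.

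Outside blood-derived cells, Ahr moved in opposite directions in 2 classes. Lymphatic endothelial cells read 143 CPM in WT treated and 27.6 in naive CD45- skin (57 and 5 UMIs), a ratio of 5.19 (2.10 to 16.6), and the 40 Cd226-/- treated cells read 167 CPM. Keratinocytes read 15.2 CPM in WT treated against 106 in naive skin, a ratio of 0.143 (0.0944 to 0.218). Blood endothelial cells read 57.3, 67.4 and 67.4 CPM in WT treated, Cd226-/- treated and naive skin and were not called.

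Arnt (chr3:95434388-95497240, plus strand), the partner that AhR needs for DNA binding, was found in every class. Fibroblasts read 47.1 CPM in WT treated, 55.6 in Cd226-/- treated, 43.7 in naive CD45- and 49.8 in naive CD45+ skin, with no call. It was lower in WT treated keratinocytes, at 17.4 against 37.6 CPM, a ratio of 0.463 (0.265 to 0.850). In Cd226-/- treated skin it was higher in macrophages, at 54.2 against 35.2 CPM, a ratio of 1.54 (1.29 to 1.83) that fell just short of a call with trimmed-mean scaling (1.4995) or looser filters (1.47). It was also higher there in monocytes, at 58.0 against 35.8 CPM, a ratio of 1.62 (1.33 to 1.98). WT treated neutrophils read 39.3 against 25.3 CPM, a ratio of 1.55 (1.01 to 2.38) that was 1.21 under trimmed-mean scaling, 1.17 with doublets kept and 1.496 with looser filters, none of them called.

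Ahrr (chr13:74211118-74292331, minus strand), the AhR repressor that competes for ARNT, was found mainly in Langerhans or mature dendritic cells and in a naive fibroblast cluster. Langerhans or mature dendritic cells read 24.4 CPM in WT treated and 30.1 in Cd226-/- treated skin, with 69 and 110 UMIs. The 36 naive cells of this class gave 2 UMIs and are too few for a ratio. Fibroblasts read 0.930 CPM in WT treated (42 UMIs), 0.270 in Cd226-/- treated (10 UMIs) and 5.94 in naive CD45- skin (424 UMIs), ratios of 0.157 (0.111 to 0.215) and 0.0454 (0.0216 to 0.0843). The naive CD45+ fibroblasts gave 3 UMIs (1.30 CPM), and the WT ratio to them was 0.716 (0.229 to 3.61), with too few UMIs for a call.

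Within fibroblasts Ahrr sat in few clusters. Naive cluster 31 (2984 cells, led by Col1a2 and Col1a1) held 369 of the naive UMIs at 15.9 CPM, and the 72 cells of naive cluster 32 read 56.9 CPM. The larger naive cluster 3 (2719 cells, led by Sfrp2) held no Ahrr UMI, so its level was under 0.178 CPM by the 3-count floor. In treated skin, cluster 12 (led by Grem1 and Tnc) read 10.5 CPM in WT and 7.76 in Cd226-/- cells, with 37 of the 42 and 7 of the 10 UMIs of the class. Cluster 12 had 303 WT and 57 Cd226-/- cells, and clusters 31 and 32 had no treated cell at all. The same cluster 12 also had the highest Ahr of any treated fibroblast cluster, 67.6 CPM in WT and 41.0 in Cd226-/- cells.

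Tiparp (chr3:65528410-65555518, plus strand) encodes a mono-ADP-ribosyltransferase that is induced by AhR and by other signals and limits AhR. It was highest in neutrophils and monocytes. Neutrophils read 443, 504 and 283 CPM in WT treated, Cd226-/- treated and naive skin, ratios of 1.57 (1.38 to 1.77) and 1.78 (1.60 to 1.99). Under trimmed-mean scaling both fell below the call, to 1.22 and 1.38, and with doublets kept the WT ratio was 1.43. Tiparp also differed within neutrophil cluster 21, at 564 and 568 against 282 CPM. Monocytes read 278, 361 and 411 CPM, with no call.

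Lymphocytes showed the clearest Tiparp difference, with 143 CPM in WT treated, 283 in Cd226-/- treated and 87.5 in naive skin. The ratios to naive were 1.63 (1.32 to 2.01) and 3.24 (2.70 to 3.90), and the Cd226-/- to WT ratio was 1.99 (1.72 to 2.30). The WT call was lost with separate clustering of the libraries, at 1.33, and with looser cell filters, at 1.48. Of the 2 lymphocyte clusters, cluster 15, with the γδ T-cell gene Trdc among its leading genes, was rich in both Ahr (421, 402 and 361 CPM) and Tiparp (535, 661 and 242 CPM). Cluster 11, led by Il17a, Il17f and Il22, read 103, 90.9 and 111 CPM of Ahr and 94.3, 140 and 68.6 CPM of Tiparp. Cluster 15 made up 61 of 395 WT treated, 139 of 606 Cd226-/- treated and 35 of 260 naive lymphocytes, so both its share and its Tiparp level were higher in the Cd226-/- than in the WT library.

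Treated fibroblasts read 37.8 and 32.1 CPM of Tiparp, below the 52.3 CPM of naive CD45- fibroblasts. The ratio passed the 1.5-fold line only in Cd226-/- cells, at 0.613 (0.574 to 0.655), against 0.722 (0.682 to 0.765) in WT cells. Set against the naive CD45+ fibroblasts, at 30.3 CPM, the WT ratio was 1.25 (0.981 to 1.61) and the Cd226-/- ratio 1.06 (0.831 to 1.37), so the direction turned in both. Keratinocytes read 23.0 CPM in WT treated and 90.7 in naive skin, a ratio of 0.254 (0.171 to 0.381). In Cd226-/- treated skin macrophages and dendritic cells were higher than naive, with ratios of 1.59 (1.42 to 1.77) and 1.58 (1.30 to 1.92), the second of which was 1.30 to 1.49 and not called under 3 other settings.

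Cyp1a1 (chr9:57687928-57703824, plus strand), the AhR target that responds most steeply in many tissues, was nearly absent from these libraries. It gave 3 UMIs in all kept cells, 1 each in a Cd226-/- treated fibroblast, a naive CD45- fibroblast and a WT treated keratinocyte. The 4054 WT treated fibroblasts gave none, which puts their level under 0.0665 CPM by the 3-count floor. No class could be compared, and at the time of sampling a Cyp1a1 response was not detectable at this depth.

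Cyp1b1 (chr17:79701537-79715061, minus strand), the P450 of extrahepatic tissue that forms the DMBA diol epoxide, had most of its UMIs in fibroblasts. Fibroblasts held between 93.9% and 97.4% of all Cyp1b1 UMIs of each library. In naive CD45- skin they were also 10201 of 10637 kept cells. They read 160.0 CPM in WT treated (7225 UMIs), 177.3 in Cd226-/- treated (6579 UMIs) and 10.8 in naive CD45- skin (774 UMIs). The ratios were 14.8 (13.7 to 15.9) and 16.4 (15.2 to 17.6). The 150 fibroblasts of the naive CD45+ library read 58.5 CPM (135 UMIs, interval 49.0 to 69.2), above naive CD45- and below both treated libraries. Against these the ratios were 2.74 (2.31 to 3.27) and 3.03 (2.56 to 3.62), so the direction held with either naive library but the size did not.

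The share of fibroblasts with a Cyp1b1 UMI was 48.3% in WT treated, 58.4% in Cd226-/- treated, 5.53% in naive CD45- and 34.7% in naive CD45+ skin, at median depths of 10132, 12623, 6634 and 15326 UMIs. Lymphocytes, which should lack the gene, gave 0.759%, 0.330% and, in naive CD45+ skin, 0 of 260 cells (which allows up to 1.15%), at medians of 3456, 3468.5 and 5763.5 UMIs. With each cell thinned to 2000 UMIs the fibroblast shares were 19.4%, 22.7%, 2.46% and 9.82%, leaving out 98, 35, 330 and 1 shallower cells. The thinned lymphocyte shares were 0.422%, 0.176% and 0. The order of the 4 libraries was the same at equal depth, with the naive CD45+ fibroblasts between the naive CD45- and the treated ones.

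Fibroblast clusters differed widely in Cyp1b1, and most treated and naive fibroblasts lay in different clusters. Treated cells were mainly in clusters 2, 4, 5 and 6, with 948, 694, 711 and 1057 WT and 864, 742, 736 and 240 Cd226-/- cells. Naive CD45- cells were mainly in clusters 3, 7, 18, 30 and 31, with 2719, 963, 958, 1644 and 2984 cells. The highest level was in cluster 6, led by Postn and Col1a2, at 296 CPM in WT and 343 in Cd226-/- cells. Cluster 2, led by Cxcl13, was lowest of the large treated clusters at 32.8 and 57.7 CPM. The large naive clusters 31, 3 and 30 read 2.07, 1.84 and 6.25 CPM, and naive cluster 19, led by Mfap4, read 104 CPM.

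Clusters 4, 7, 18, 19 and 25 held at least 20 WT treated and 20 naive CD45- cells, and in all 5 the WT treated level was the higher. Cd226-/- cells could be set beside naive ones in 4 of these and were higher in 3, with cluster 19 the exception. Cluster 4, led by Cxcl14 and Ptx3, read 131 CPM in WT treated and 236 in Cd226-/- treated against 19.0 in 160 naive cells (interval 10.8 to 30.8). Cluster 18 read 58.6 and 46.0 against 19.4 CPM, and cluster 25 read 62.2 and 89.4 against 15.4 CPM. In cluster 18 the Cd226-/- interval (19.9 to 90.7) overlapped the naive one (15.6 to 24.0). Cluster 7 read 77.1 CPM in 22 WT treated against 31.4 in naive cells. Cluster 19 read 193 in 32 WT treated and 51.8 in 41 Cd226-/- treated against 104 CPM in naive cells. Its WT value came from 33 UMIs. In this cluster 25% of WT treated and 34.0% of naive cells held a Cyp1b1 UMI, so by share of cells the direction turned. In cluster 2 the 27 cells of the naive CD45+ library read 41.6 CPM (24.2 to 66.6), between the WT and Cd226-/- treated values. In naive cluster 3 the 39 cells from the naive CD45+ library read 21.3 CPM (11.0 to 37.2) against 1.84 (1.25 to 2.61) in the naive CD45- library, so the naive libraries differed within 1 cluster too. Sorting, depth and cluster mix all differed between the naive libraries, and their part in this was not tested.

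**Figure D3:**
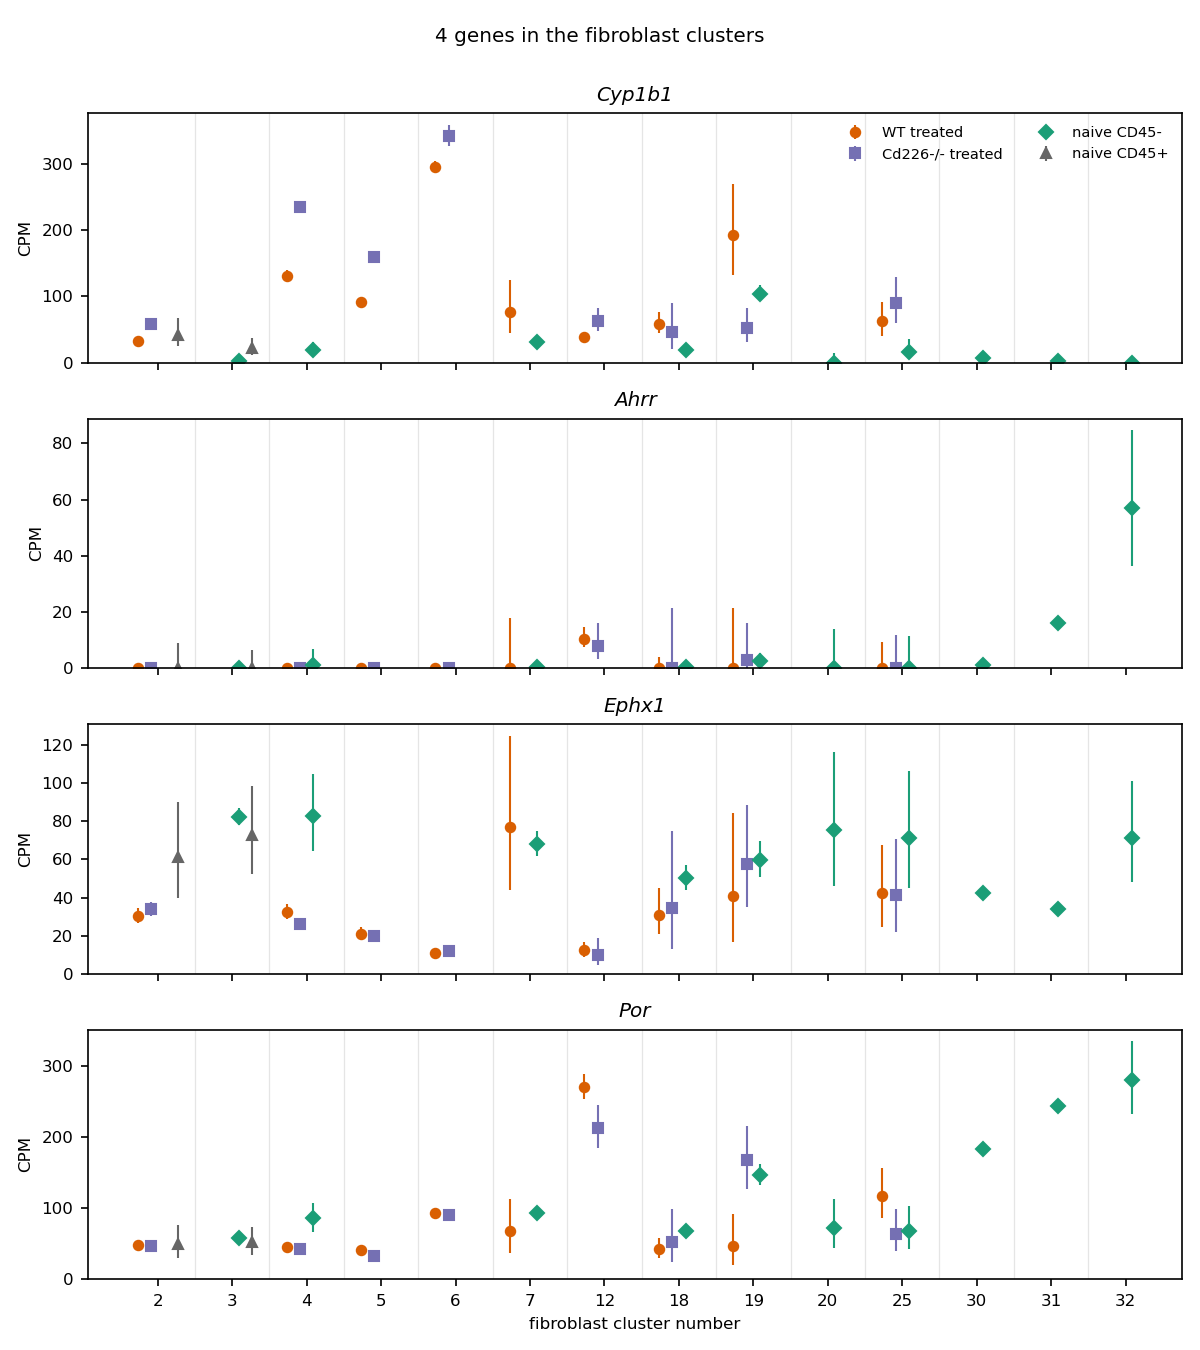
Cyp1b1, Ahrr, Ephx1 and Por in each fibroblast cluster (CPM, linear axis from 0), with points for each library and exact Poisson 95% bars. Cyp1b1 is highest in treated cells of cluster 6 (296 and 343 CPM) and, of the clusters with over 1000 cells, lowest in naive clusters 3 and 31 (1.84 and 2.07 CPM).

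In the other named classes Cyp1b1 was lower than in treated fibroblasts, and 2 unnamed clusters with some fibroblast markers also held it. WT treated keratinocytes read 14.0 CPM (45 UMIs) and naive ones 31.0 (14 UMIs), a ratio of 0.452 (0.243 to 0.891) that was 0.858 with doublets kept. The naive keratinocyte level lay above that of naive CD45- fibroblasts and below that of naive CD45+ fibroblasts. In macrophages, monocytes, neutrophils, lymphocytes and the dendritic classes the level was between 0 and 5.02 CPM in every library. In WT treated lymphocytes the 1.70 CPM measured lay below the 3.85 CPM that their fibroblast marker level would bring along. This is given for that class and library only and is not carried over to the other immune classes.

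Por (chr5:135670033-135735326, plus strand), the reductase that feeds electrons to all microsomal P450s, went the other way from Cyp1b1 in fibroblasts. They read 81.4 CPM in WT treated, 53.4 in Cd226-/- treated, 155 in naive CD45- and 101 in naive CD45+ skin. The ratios to naive CD45- were 0.526 (0.506 to 0.546) and 0.345 (0.329 to 0.362). Against naive CD45+ fibroblasts they were 0.803 and 0.527, which ends the WT call. Naive clusters 31, 32 and 30 were rich in Por, at 244, 280 and 183 CPM, and naive cluster 3 read 58.1 CPM. Of the 5 clusters shared with naive cells, WT treated Por was lower in 4, such as 44.8 against 85.4 CPM in cluster 4, and higher in cluster 25, at 117 against 68.0 CPM. The WT and naive intervals overlapped in clusters 7 and 25. Cd226-/- treated Por was lower in 3 of 4 and higher in cluster 19, at 167 against 146 CPM. The Cd226-/- and naive intervals overlapped in clusters 18, 19 and 25 and lay apart only in cluster 4, at 42.9 against 85.4 CPM.

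Por was highest in neutrophils, at 228, 226 and 290 CPM in WT treated, Cd226-/- treated and naive skin, and in monocytes, at 199, 189 and 165 CPM, with no call in either. Lymphocytes were higher after treatment, at 63.0 and 60.8 against 37.9 CPM, ratios of 1.66 (1.21 to 2.31) and 1.60 (1.19 to 2.19). Cd226-/- treated macrophages read 142 against 88.7 CPM, a ratio of 1.60 (1.44 to 1.77), and WT treated ones read 103 CPM with no call. WT treated keratinocytes read 28.0 against 95.2 CPM, a ratio of 0.294 (0.202 to 0.433).

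Ephx1 (chr1:180976210-181020904, minus strand), the epoxide hydrolase, was lower in treated skin in every class that could be tested, 5 of 5 in WT and 2 of 2 in Cd226-/- skin. Fibroblasts read 21.4 CPM in WT treated, 24.7 in Cd226-/- treated, 53.7 in naive CD45- and 64.1 in naive CD45+ skin, with both naive libraries above both treated ones. The ratios to naive CD45- were 0.398 (0.370 to 0.427) and 0.460 (0.428 to 0.495), and those to naive CD45+ were 0.333 and 0.386. Of the clusters shared with naive cells, WT treated Ephx1 was lower in 4 of 5, with cluster 4 the widest gap at 32.6 against 83.0 CPM and cluster 7 the exception at 77.1 against 68.2 CPM. Cd226-/- treated Ephx1 was lower in 4 of 4, from 25.9 against 83.0 CPM in cluster 4 to 57.6 against 59.6 CPM in cluster 19. For both treated libraries the intervals lay apart from the naive ones only in cluster 4 and overlapped in the other shared clusters. The lowest fibroblast levels were in clusters 6 and 12, where Ephx1 read 11.1 and 12.2 CPM in WT and 11.9 and 9.98 in Cd226-/- cells. Cluster 6, with the most Cyp1b1, was thus among those with the least Ephx1.

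Lymphatic endothelial cells had the highest Ephx1 of any named class, 182 CPM in naive and 57.8 in WT treated skin, a ratio of 0.317 (0.178 to 0.557). Fibroblast RNA at their marker level would bring 10.5 CPM of Ephx1 to the naive and 0.473 to the WT treated cells. Blood endothelial cells read 77.3 in naive and 36.6 in WT treated skin, a ratio of 0.474 (0.296 to 0.758). Keratinocytes read 48.7 and 12.4 CPM, a ratio of 0.255 (0.148 to 0.451). Macrophages read 17.5 CPM in naive CD45+ skin against 6.81 in WT treated and 4.72 in Cd226-/- treated skin, ratios of 0.389 (0.215 to 0.651) and 0.270 (0.149 to 0.452). Monocytes, neutrophils and lymphocytes stayed at or under 4.28 CPM in every library.

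**Figure D4:**
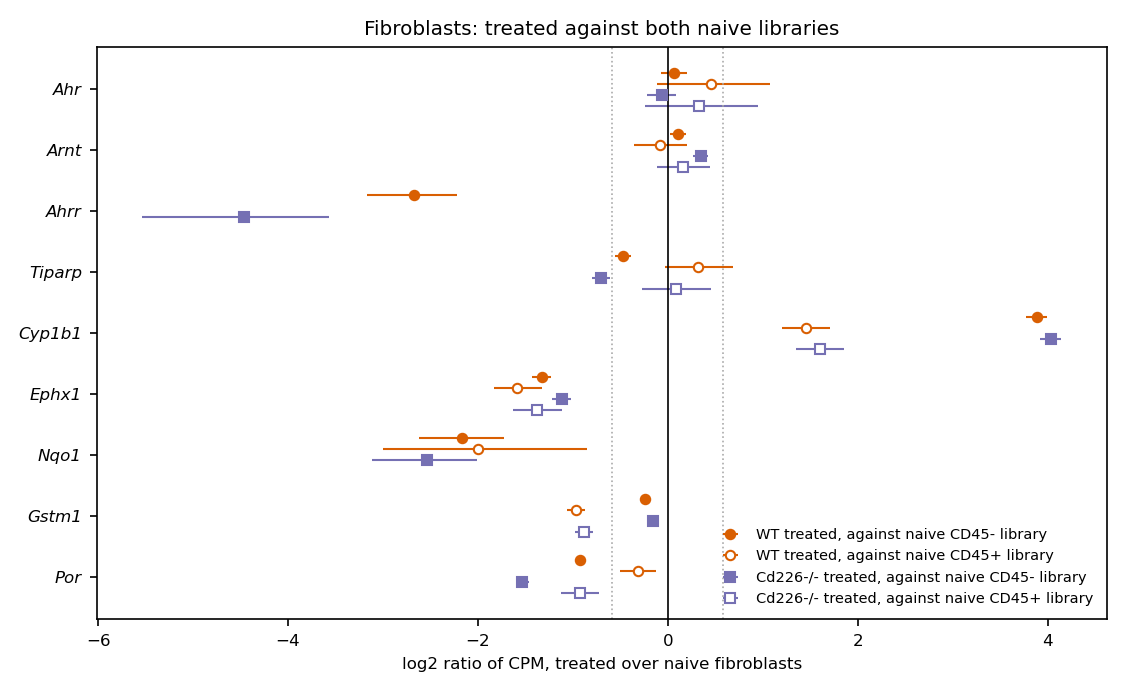
Log2 ratio of treated over naive CPM for each gene in fibroblasts, against the naive CD45- (filled) and naive CD45+ (open) library, with exact 95% bars and dotted lines at 1.5-fold; ratios with too few UMIs are left out. Cyp1b1 lies above 0 and Ephx1 below 0 with either naive library, while Tiparp crosses 0 in both treated libraries.

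Nqo1 (chr8:107388225-107403206, minus strand), a quinone reductase shared by AhR and NRF2, was scarce, with 604 UMIs in all. Fibroblasts read 1.09 CPM in WT treated (49 UMIs), 0.836 in Cd226-/- treated (31 UMIs) and 4.86 in naive CD45- skin (347 UMIs), ratios of 0.223 (0.162 to 0.302) and 0.172 (0.115 to 0.248). Its highest level was in lymphatic endothelial cells, at 60.3, 51.0 and 22.1 CPM, from 24, 11 and 4 UMIs. That is too few for a call.

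Gstm1 (chr3:108012255-108017973, minus strand) encodes a glutathione transferase of the mu class. Its near-identical paralogs could take or give reads, so its values are uncertain to that extent. Fibroblasts read 214 CPM in WT treated, 227 in Cd226-/- treated, 253 in naive CD45- and 418 in naive CD45+ skin. The ratios to naive CD45- were 0.846 (0.825 to 0.867) and 0.897 (0.874 to 0.920), with no call, and those to naive CD45+ were 0.512 and 0.543. Fibroblast clusters spread further than libraries: cluster 2 read 478 CPM and cluster 6 read 90.3 CPM in WT treated skin, and naive clusters 3 and 31 read 633 and 80.7 CPM. Gstm1 was thus low in cluster 6, where Cyp1b1 was high, but low Gstm1 was not particular to that cluster. It read 44.9 CPM in WT treated cells of cluster 12. Naive clusters 30 and 31 read 85.0 and 80.7 CPM of Gstm1 with only 6.25 and 2.07 CPM of Cyp1b1.

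Elsewhere Gstm1 was lower after treatment in several classes. Blood endothelial cells read 202 CPM in naive, 65.7 in WT treated and 32.3 in Cd226-/- treated skin, ratios of 0.325 (0.236 to 0.445) and 0.160 (0.0772 to 0.298). Keratinocytes read 51.3 CPM in WT treated and 255 in naive skin, a ratio of 0.202 (0.158 to 0.258). In Cd226-/- monocytes the ratio was 0.649 (0.532 to 0.794), and it was 0.7504 to 0.780 and not called under 3 other settings. Macrophages read 37.2 and 36.9 against 70.1 CPM, ratios of 0.531 (0.419 to 0.664) and 0.526 (0.431 to 0.635). Cd226-/- treated endothelial cells held fibroblast markers at 0.573% of the fibroblast level, below both other libraries.

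Cells with UMIs of Cyp1b1, Ephx1 and Por together, the 3 enzymes that lead from DMBA to the diol epoxide, were mostly fibroblasts. They were 198 of 4054 WT treated (4.88%, exact interval 4.24% to 5.59%), 176 of 2763 Cd226-/- treated (6.37%, 5.49% to 7.35%), 80 of 10201 naive CD45- (0.784%, 0.622% to 0.975%) and 16 of 150 naive CD45+ fibroblasts. Among keratinocytes they were 3 of 206 WT treated, 1 of 24 Cd226-/- treated and 2 of 59 naive cells. Among unnamed cells they were 16 of 673 WT treated and 4 of 590 Cd226-/- treated cells. Naive CD45- endothelial cells gave 1 of 148, and Cd226-/- treated Langerhans or mature dendritic cells 1 of 338. None of the macrophages, monocytes, neutrophils, dendritic cells or lymphocytes of any library held all 3. Thinned to 2000 UMIs per cell, the fibroblast shares were 0.0717%, 0.0832%, 0.0672% and 0.213%, those of naive keratinocytes 0.117% and of WT unnamed cells 0.178%, and shares this small carry no order between the libraries. For Cyp1b1 and Por alone the thinned shares were 2.75%, 2.10%, 0.544% and 1.75%.

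Between the 2 treated libraries the genes differed little. Over 8 classes, 2 of 40 gene and class pairs were higher and 5 were lower in Cd226-/- than in WT skin. In fibroblasts 2 of 9 genes were lower, with 12.6% of all genes called. In blood endothelial cells 2 of 3 were lower (20.7% called), in Langerhans or mature dendritic cells 1 of 6 was lower (10.8% called), and 1 was higher in dendritic cells (of 3, 10.4% called) and in lymphocytes (of 4, 11.5% called). None of 5 genes was called in macrophages (9.38% called), monocytes (9.57% called) or neutrophils (10.4% called).

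The fibroblast genes called between the 2 treated libraries were Ahrr and Por. Ahrr read 0.270 CPM in Cd226-/- against 0.930 in WT cells, a ratio of 0.290 (0.130 to 0.587). Most of these UMIs lay in cluster 12, 7 in Cd226-/- and 37 in WT cells. There the intervals overlapped, at 7.76 CPM (3.12 to 16.0) and 10.5 CPM (7.40 to 14.5). The part of cluster sizes in the class ratio of Ahrr was not tested. Por read 53.4 against 81.4 CPM, a ratio of 0.657 (0.621 to 0.694). Without the cell richest in Ahrr in each library the Ahrr ratio was 0.243, on fewer than the 50 UMIs a call needs. Within clusters 2, 4 and 6 the Cd226-/- and WT values of Por lay close together, at 46.5 and 48.0, 42.9 and 44.8, and 90.2 and 93.5 CPM. They lay apart in smaller clusters and both ways, at 167 and 46.7 in cluster 19, 63.9 and 117 in cluster 25 and 213 and 271 CPM in cluster 12, and read 32.0 and 40.8 CPM in cluster 5. In cluster 25 the 2 intervals of Por overlapped. Por-rich cluster 12 held 57 Cd226-/- and 303 WT cells. Cyp1b1 had a class ratio of 1.11 (1.07 to 1.15), with no call, and was higher in Cd226-/- cells in 6 of 8 clusters, as in cluster 4 (236 and 131 CPM) and cluster 5 (159 and 92.0 CPM). It was lower in cluster 19 (51.8 and 193 CPM) and cluster 18 (46.0 and 58.6 CPM). The Cyp1b1 intervals of the genotypes overlapped in clusters 18 and 25. The share of cells in Cyp1b1-rich cluster 6 was lower in the Cd226-/- library, at 240 of 2763 against 1057 of 4054 cells.

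In the other classes the lymphocyte Tiparp ratio of 1.99, given above, rested on 717 and 251 UMIs. The rest had fewer. Endothelial Tiparp read 14.7 CPM in Cd226-/- against 44.1 in WT cells, from 5 and 47 UMIs, a ratio of 0.332 (0.103 to 0.832). Endothelial Gstm1 read 32.3 against 65.7 CPM, a ratio of 0.491 (0.234 to 0.933). Dendritic Tiparp read 113 against 73.9 CPM, a ratio of 1.53 (1.10 to 2.16), which was 1.36 to 1.43 under 3 of the other settings and then not called. Gstm1 in Langerhans or mature dendritic cells read 6.29 against 20.9 CPM, a ratio of 0.302 (0.178 to 0.496) that vanished when doublets were kept, at 1.01. Fibroblast markers in this class stood at 0.801% of the fibroblast level in Cd226-/- and 4.64% in WT cells, with all 6 above 0.

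Other genes of the pathway, from lists of known function, gave the setting in treated fibroblasts. Their counts stand against 31.9% of all genes called in WT and 38.4% in Cd226-/- fibroblasts, and none of the counts is read as particular to its list. Of 7 AhR chaperones and partners tested in WT cells 2 were higher and none lower, and of 8 tested in Cd226-/- cells 4 were higher and 1 lower, with median log2 ratios of 0.36 and 0.63. The chaperone gene Hsp90aa1, whose product holds AhR in the cytoplasm, had ratios of 1.80 and 2.04. Of 3 further AhR battery genes tested, 1 was lower in each library: the aldehyde dehydrogenase Aldh3a1 read 3.57 and 1.91 CPM against 57.3, ratios of 0.0622 and 0.0334. The ratios of these AhR targets to naive CD45- fibroblasts were thus not all in 1 direction, with Cyp1b1 higher and Ahrr, Nqo1 and Aldh3a1 lower. Against naive CD45+ fibroblasts the WT ratio of Ahrr was 0.716, with too few UMIs for a call. Naive cluster 31, which had no treated cell, held 369 Ahrr and 173 Nqo1 UMIs. The part of such differences in cluster mix was not tested.

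NRF2 targets, genes of the oxidant response, had 4 of 12 called in WT and 5 of 12 in Cd226-/- fibroblasts, a share near that of all genes, and all of these calls were upward, with medians of 0.48 and 0.25. The heme oxygenase Hmox1 had ratios of 3.87 and 4.26, the glutamate-cysteine ligase subunit Gclm 2.08 and 2.54, and the thioredoxin reductase Txnrd1 1.77 and 2.12. Nqo1, also an NRF2 target, was lower in the same cells. Of 18 glutathione transferases tested, 2 were higher and 6 lower in WT cells, where 31.9% of all genes were called. In Cd226-/- cells, where 38.4% of all genes were called, 3 were higher and 3 lower. The medians were -0.32 and -0.15. The omega-class enzyme Gsto1 had ratios of 4.90 and 5.90.

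Of 5 genes that pass electrons to P450s, none was called in WT and 1 was lower in Cd226-/- cells, Pgrmc1 at 0.598. Of 13 genes of conjugation and carbonyl reduction, 1 was higher and 1 lower in WT, and 2 were higher and 2 lower in Cd226-/- cells. The carbonyl reductase Cbr3 had ratios of 2.40 and 1.86, and the hydroxysteroid dehydrogenase Akr1c18 had ratios of 0.150 and 0.495. In WT treated keratinocytes Aldh3a1 and Akr1c18 were lower as in fibroblasts, at 6.53 against 142 CPM and 2.49 against 137 CPM, and Gclm was higher at 1.80. All lists are set beside all-gene medians of 0.18 (WT) and 0.17 (Cd226-/-) in fibroblasts. Of all genes tested there, 31.9% (WT) and 38.4% (Cd226-/-) were called.

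The pattern of each gene over 31 class and library units (12 classes) was compared with that of all other genes by Pearson's r of log2(CPM + 1), as a description; units of 1 library share its free RNA, and units of 1 class its depth. Cyp1b1 was most like the fibroblast genes Slit3 (r = 0.94), Fgf7 (0.93) and Dclk1 (0.91), all highest in Cd226-/- treated fibroblasts. Tiparp was most like Glrx (0.90), Mxd1 (0.88) and Rnf149 (0.87), which were highest in neutrophils. Ephx1 was most like Nfic (0.94), Epn2 (0.93) and Trim2 (0.92), and Nqo1 was most like Sema3f (0.91), a gene highest in lymphatic endothelial cells. Ahr had no close match, with Gpi1 at 0.80, Psme1 at 0.79 and Dbnl at 0.77, and Por was most like Snx18 (0.87).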

How the data were processed

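Cells of mouse back skin were profiled with 3′ single-cell RNA-seq (Chromium v3.1) in 4 libraries, 1 per group. The deposited files hold raw UMI counts per gene and cell, which the authors produced on mm10 by running Cell Ranger 3.1.0, per the submitters' processing notes. The 10 genes and the gene lists were chosen with earlier results of these data known.

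Filters kept cells with 500 or more genes, 1000 or more UMIs and no more than 10% of UMIs from mitochondrial genes. Doublets were removed with Scrublet (scanpy 1.11.5); in the naive CD45+ library its threshold marked 0 cells, so the highest 5% of scores were removed. All libraries were clustered together (2000 variable genes without the 10 genes and the lists, 30 components, 15 neighbours, Leiden resolution 1.0) into 34 clusters, named from fixed markers. UMIs were summed per class and library; levels are shown for at least 20 cells and ratios for at least 50 cells. Named genes were the 10 genes everywhere and, from each list, up to 4 called genes ordered by the interval bound nearest to equality. No model was fitted and no p-value computed, since 1 library stands for each group. Coordinates are from GENCODE vM21 on GRCm38. The scripts were tested on simulated data. Other settings tried were a finer clustering, clustering each library on its own, looser cell filters, doublets kept, trimmed-mean scaling, other call rules, thinning, leaving out the richest cell, and, added after seeing the data, the other naive library for fibroblasts and macrophages.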

Additional observations from a re-analysis of the deposited data

Results flagged for a closer look

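Several genes were called in opposite directions in different classes under the same comparison. These differences between classes were not tested, since each group is 1 library. In WT treated against naive skin, the ratio was 8.97 in neutrophils and 0.143 in keratinocytes for Ahr, 1.55 and 0.463 in the same classes for Arnt, and 1.57 and 0.254 for Tiparp. Cyp1b1 had a ratio of 14.8 in fibroblasts and 0.452 in keratinocytes, and Por 1.66 in lymphocytes and 0.294 in keratinocytes. In Cd226-/- treated against naive skin, Tiparp had a ratio of 3.24 in lymphocytes and 0.613 in fibroblasts, and Por 1.60 in macrophages and 0.345 in fibroblasts. Between the treated libraries, the Cd226-/- to WT ratio of Tiparp was 1.99 in lymphocytes and 0.332 in endothelial cells. All 5 keratinocyte values rest on 59 naive cells, and the Cyp1b1 ratio there was 0.858 with doublets kept. The WT neutrophil calls of Arnt and Tiparp were lost under some other settings. Fibroblast Tiparp turned to 1.06 against naive CD45+ cells, and endothelial Tiparp rests on few UMIs.

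The 150 fibroblasts of the naive CD45+ library, which the sort was meant to deplete, read 58.5 CPM of Cyp1b1, above the 10.8 CPM of naive CD45- fibroblasts.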

How the results depend on the processing

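With no minimum of UMIs, calls of the 10 genes rose from 26 to 55 in WT treated and from 22 to 45 in Cd226-/- treated against naive skin, and from 7 to 25 between genotypes (15 at 10 UMIs or more). A 2-fold rule left 17, 9 and 4. In fibroblasts, the 2 calls between genotypes became 1 at 2-fold and 1 without the richest cell, where Ahrr kept its fold (0.243) but had under 50 UMIs. The Cyp1b1 ratio of fibroblasts, 14.8 in WT and 16.4 in Cd226-/- skin, was 12.7 and 14.1 under trimmed-mean scaling, 19.8 and 21.6 with looser cell filters, and 2.74 and 3.03 against naive CD45+ fibroblasts. The WT level of 160.0 CPM was 153 with looser filters, 155 with doublets kept, 138.2 as a mean over cells and 138.3 under trimmed-mean scaling. The Cd226-/- level of 177.3 CPM was 167 with looser filters, 169 with doublets kept, 167 with each library clustered on its own, 159 as a mean over cells and 153 under trimmed-mean scaling. The naive level of 10.8 CPM was 7.71 with looser filters and 14.8 as a mean over cells. Shares of fibroblasts with a Cyp1b1 UMI fell from 48.3%, 58.4% and 5.53% to 19.4%, 22.7% and 2.46% at 2000 UMIs and to 11.3%, 13.2% and 1.35% at 1000 UMIs. Gstm1 in Langerhans or mature dendritic cells turned to 1.01 with doublets kept, and Tiparp in Cd226-/- fibroblasts to 1.06 against naive CD45+ fibroblasts. Except where an alternative's construction shows it, the cause was not tested.

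By fold alone, with the UMI minimum not applied again, 51 of 55 calls were kept with a finer clustering, 48 with doublets kept, 49 with looser filters, 51 under trimmed-mean scaling and all 55 without the richest cell. Of the 48 that clustering each library on its own could give, 45 were kept. Against the other naive library 8 of 11 fibroblast and 7 of 9 macrophage calls were kept. No paired analysis was possible because each group has 1 library. Depth limits Cyp1a1 and Nqo1 most, and classes with under 100 cells give wide intervals.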

Other observations

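Some Cyp1b1-positive cells of the treated libraries belonged to 2 clusters that could not be named from the markers. Cluster 14, led by Sostdc1, Wif1, Rspo3 and Corin, read 73.7 CPM of Cyp1b1 in 417 WT cells and 16.9 in 243 Cd226-/- cells, with Ephx1 at 42.1 and 14.3 CPM. Cluster 27, led by Lrrc15, Acta2 and Tagln, read 181 CPM in 99 WT cells and 135 in 123 Cd226-/- cells, with Ephx1 at 26.0 and 12.6 CPM. Neither cluster held more than 12 naive CD45- cells, so neither has a naive value.

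Melanocytes had a value only in WT treated skin, where 83 cells read 87.0 CPM of Tiparp, 39.7 of Ahr, 14.2 of Cyp1b1 and 21.7 of Ephx1. The 23 mast cells or basophils of WT treated skin read 64.5 CPM of Cyp1b1, from 5 UMIs in 1 cell. Fibroblast markers stood at 6.81% of the fibroblast level in these melanocytes and at 18.1% in these mast cells or basophils. The part of fibroblast RNA in the values of both classes was not tested.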
